A study of Homo sapiens with 6 samples.

Results

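The nuclear genes of oxidative phosphorylation were examined as 1 set in the CELF1 RIP-Seq data. The set comprised 99 of the 20176 protein-coding genes of the GRCh37 annotation, chosen by symbol alone: all genes starting with NDUFA, NDUFB, NDUFC, NDUFS, NDUFV, UQCR, COX4, COX5, COX6, COX7, COX8 or ATP5, with SDHA to SDHD and CYC1. Of these, 91 had at least 1 exonic bin in the deposited lists and 86 had enough reads for the test. The RIP-Seq experiment used SK-Mel-103 and UACC-62, established human melanoma cell lines, grown in DMEM with 10% fetal bovine serum and given no other treatment according to the labels. CELF1 (also called CUGBP1) was immunoprecipitated from fixed cell lysates, and the RNA recovered with the antibody (IP) was sequenced beside the RNA of the same lysate (input). Of the 3 IP samples, each with its own input, 1 came from SK-Mel-103 (replicate 1) and 2 from UACC-62 (replicates 1 and 3). The UACC-62 replicates are described as biological, and SK-Mel-103 had no replicate. Recovery was measured against input, and an IP with control IgG was not analysed here.

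Oxidative phosphorylation couples electron transport through complexes I to IV of the inner mitochondrial membrane to ATP synthesis by complex V. Most of the subunits are encoded in the nucleus, translated in the cytosol and imported into mitochondria. Their mRNAs are typically short and abundant. CELF1 is an RNA-binding protein that recognises GU-rich elements (GREs), mostly in 3′ UTRs, and affects mRNA decay, splicing and translation.

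The lists give, for bins of 20 bp that passed the authors’ peak caller, the IP reads and the input reads. Values of the 3 samples are given with SK-Mel-103 first, followed by replicate 1 and then replicate 3 of UACC-62. The lists held 10958459, 11333805 and 14436573 IP reads and 8453517, 10161917 and 8900292 input reads. No bin had fewer than 4 IP reads. CELF1 itself had 4079, 3156 and 2061 input reads and 32770, 35774 and 32025 IP reads. Of 8 melanocyte lineage genes, PMEL and TYRP1 had no listed bin in any sample, and SK-Mel-103 had 18 input reads of MITF against 6034 and 5000 in UACC-62, and none of TYR, DCT or S100B. MLANA had 18 input reads in SK-Mel-103 against 826 and 926. SOX10 was listed in both lines, with 864 input reads in SK-Mel-103 against 2115 and 1080. Only bins that passed in the IP are listed, so that a lack of listed reads does not show absence of the RNA. Markers of lymphoid, endothelial, keratinocyte and erythroid cells had at most 3 input reads.

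The mRNAs of the oxidative phosphorylation genes took a smaller share of the IP than of the input in every sample. They held 0.308%, 0.256% and 0.347% of the IP reads against 0.694%, 1.15% and 1.24% of the input reads, so that their input share was 2.25, 4.48 and 3.57 times their IP share. For each gene, reads were summed over the exonic bins listed in all 3 samples (common bins), and log2 IP over input was taken after scaling for library size and composition, so that 0 marks the centre of the tested genes and not equal amounts of RNA. The median over the 86 tested members was -1.16 (quartiles -1.39 and -0.93, range -1.92 to 0.84), against -0.08 over all 6914 genes tested. The medians of the members were -0.77 in SK-Mel-103 and -1.44 and -1.35 in the UACC-62 replicates. By edgeR’s quasi-likelihood test with Benjamini-Hochberg adjustment over all genes, 81 of the 86 members were lower in the IP than in the input, where 34.3% of all tested genes were. Only ATP5IF1 was higher, where 32.5% of all tested genes were, and 4 were neither, among them NDUFA10, NDUFA11 and SDHC. The log2 value was below 0 in all 3 pairs for 79 members, against 41.3% of all tested genes. In the fit, the lower members ranged from 1.35-fold (COX7A2L) to 3.8-fold (NDUFB4).

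**Figure D1:**
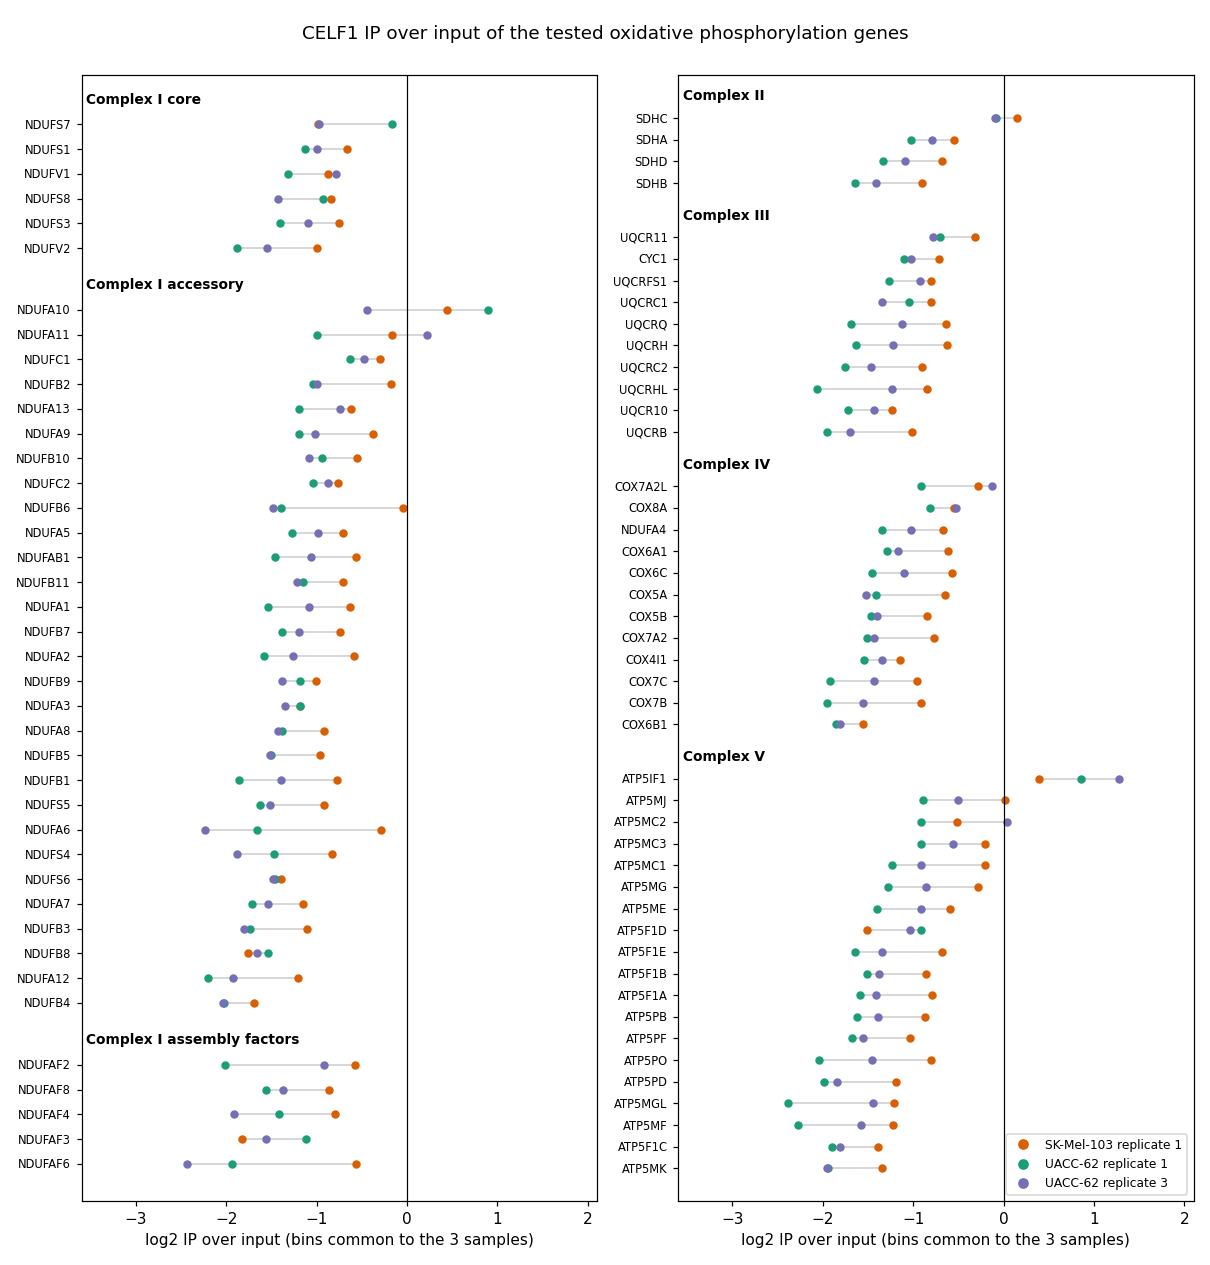
Log2 IP over input (x axis) of 85 tested members, grouped by complex, with 1 point per sample and a grey line from the lowest to the highest sample. Nearly all points lie left of 0, and all 3 points of ATP5IF1 lie to the right.

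The test describes listed bins only. A bin enters a list when its IP reads pass, so that a gene with few input reads can be listed only at a higher ratio, and the part of this selection in the result was not tested. With coding bins alone, 47 of 78 tested members were lower and 1 higher, with a median of -0.64, where 1062 of all 4905 tested genes were lower and 1211 higher, with a median of 0.04.

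Complex I feeds electrons from NADH into the chain, and its members were lower in the IP with few exceptions. Of the 7 core subunits, which carry the flavin and the iron-sulfur clusters, 6 were lower (median -0.99). The lowest was NDUFV2, with 276, 247 and 429 IP reads against 598, 1516 and 1314 input reads over 17 bins. Its log2 values of -1.0, -1.88 and -1.55 gave -1.48 ± 0.18 (SE) in the fit (adjusted p = 3.2e-06, edgeR). NDUFS3 followed with -0.75, -1.41 and -1.10 (fit -1.09 ± 0.17, adjusted p = 3.5e-05). NDUFS7 rested on only 3 bins and on 19, 30 and 18 IP reads. Its fit value of -0.70 ± 0.29 was close to the threshold (adjusted p = 0.041) and was no longer called without SK-Mel-103 replicate 1 or without UACC-62 replicate 3.

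Of 29 tested accessory subunits of complex I, which surround the core and take part in its assembly and stability, 27 were lower (median -1.14). NDUFB4 had the lowest mean of all members. It had 98, 76 and 98 IP reads against 344, 521 and 424 input reads over 5 bins, and log2 values of -1.69, -2.03 and -2.04, which lie close together and do not approach 0 in any sample. The fit gave -1.93 ± 0.18, or 3.8-fold lower (adjusted p = 1.1e-07), the smallest adjusted p of the 86 tested members. NDUFA12, with -1.21, -2.20 and -1.93, was 3.43-fold lower (adjusted p = 8.9e-07). NDUFB8 was 3.17-fold lower (adjusted p = 5.4e-07), with -1.76, -1.54 and -1.66. Unlike most members, NDUFB8 was lowest in SK-Mel-103. The 5 tested assembly factors, which help to build complex I but are not part of it, were called lower (median -1.38), among them NDUFAF3 (-1.53 ± 0.22, adjusted p = 1.3e-05) and NDUFAF8 (-1.28 ± 0.18, adjusted p = 1.2e-05). The values of NDUFAF2 (-1.18 ± 0.30, adjusted p = 0.0025) and NDUFAF6 (-1.79 ± 0.44, adjusted p = 0.0018) rested on 2 bins and 1 bin. The call of NDUFAF2 was lost without UACC-62 replicate 1. NDUFAF6 had 9, 4 and 5 IP reads against 15, 31 and 33 input reads, so that its IP reads were below the minimum count of 10 and it entered the test through its input alone. NDUFAF1, NDUFAF5 and NDUFAF7 were listed but had no common bin, and the accessory subunit NDUFV3 had 1 common bin with too few reads for the test.

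Complex II, the succinate dehydrogenase shared with the tricarboxylic acid cycle, was the only complex without a subunit encoded in mitochondrial DNA. SDHB, its iron-sulfur subunit, had 316, 412 and 688 IP reads against 640, 2148 and 1918 input reads, and was 2.51-fold lower (adjusted p = 8.3e-06). SDHD, a membrane anchor, was 2.05-fold lower (adjusted p = 8.9e-05), and SDHA, the flavoprotein, 1.73-fold lower (adjusted p = 0.00043). SDHA has 4 annotated pseudogene copies, all with listed bins, so that reads may be divided among them. This limit is not particular to SDHA. Pseudogene copies are annotated for 52 members, and for 5 of these, among them UQCRB, COX7B and ATP5F1E, a copy had listed bins. NDUFB4 has 12 copies and COX6B1 has 7, none with a listed bin. SDHC, the other membrane anchor, had 187, 259 and 451 IP reads against 183, 461 and 507 input reads. Its log2 values of 0.15, -0.09 and -0.10 lay around 0 (fit -0.02 ± 0.16, adjusted p = 0.90).

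All 10 tested members of complex III, which passes electrons from ubiquinol to cytochrome c, were lower (median -1.16). The mean values were lowest for UQCRB, a small subunit next to the ubiquinone site (2.95-fold lower, adjusted p = 2.7e-06), and UQCR10 (2.78-fold lower, adjusted p = 1.1e-06). They were nearest to 0 for UQCR11, with -0.32, -0.70 and -0.78 (1.52-fold lower, adjusted p = 0.0036), and for CYC1, the haem-carrying electron donor to cytochrome c, with -0.72, -1.10 and -1.02 (1.94-fold lower, adjusted p = 7.7e-05). The call of UQCR11 was lost without UACC-62 replicate 3. UQCRHL, an intronless copy of UQCRH, shares most of its sequence with it, and its reads cannot be assigned with certainty.

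Complex IV, cytochrome c oxidase, reduces oxygen, and several of its subunits exist as pairs of ubiquitous and tissue-restricted isoforms. Of these pairs, the ubiquitous isoforms had enough reads for the test. COX4I2, COX6A2, COX7A1, COX7B2, COX8C and NDUFA4L2 had no bin in any list, and COX6B2 had 3 bins, none of them common. The readthrough genes ATP5MF-PTCD1 and NDUFC2-KCTD14 had no bin that was theirs alone, which completes the 8 members without a listed bin. These lists hold passing bins only, so that absence does not show that a gene was not expressed. All 12 tested members of complex IV were lower (median -1.22). COX6B1 had 369, 338 and 484 IP reads against 1184, 2049 and 1783 input reads, and with -1.56, -1.86 and -1.81 was 3.36-fold lower (adjusted p = 1.9e-07). COX7B was 2.79-fold lower (adjusted p = 7.4e-06), COX4I1 2.55-fold (adjusted p = 3.4e-06), COX7A2 2.36-fold (adjusted p = 2.1e-05), COX6A1 2.04-fold (adjusted p = 7.7e-05) and NDUFA4 2.03-fold (adjusted p = 8.8e-05). COX8A was 1.55-fold lower (adjusted p = 0.0019). COX7A2L, a paralog of COX7A2 that takes part in supercomplex assembly, stood apart from it, with -0.28, -0.91 and -0.13 against -0.77, -1.51 and -1.44. Its call (1.35-fold lower, adjusted p = 0.043) was lost without UACC-62 replicate 1 and by another test (DESeq2). It was also lost with coding bins, bins that have input, or exons of the main transcript only, and without the pairing of each IP with its input. NDUFA4 was no longer called with coding bins only (-0.06) or without that pairing.

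Complex V, the ATP synthase, held both the members with most reads and the exception of the set. Of its 19 members, 18 were lower (median -1.25). ATP5F1B, the catalytic beta subunit, had 2524, 3150 and 4884 IP reads against 4956, 14979 and 13312 input reads over 62 bins, the most reads of any member on both sides. Its log2 values were -0.86, -1.51 and -1.38, and the fit gave -1.25 ± 0.22 (adjusted p = 0.0001). ATP5F1A, the alpha subunit, was close to it (-1.26 ± 0.21, adjusted p = 6.4e-05). ATP5MK, a small membrane subunit, was 3.35-fold lower (adjusted p = 3.9e-07) and ATP5F1C, the gamma subunit of the rotating stalk, 3.25-fold lower (adjusted p = 4.4e-07). ATP5MC1, ATP5MC2 and ATP5MC3 encode the same mature subunit c of the membrane ring and differ in their UTRs and import sequences. All were called lower, by 1.74-fold, 1.38-fold and 1.48-fold (adjusted p = 0.0019, 0.039 and 0.012), and thus less than most members. ATP5MC2 was at -0.52, -0.92 and 0.04, so that UACC-62 replicate 3 lay just above 0. The calls of ATP5MC2 and ATP5MC3 were lost without UACC-62 replicate 1, and that of ATP5MC3 also without UACC-62 replicate 3. ATP5MJ, another small membrane subunit, had 0.01, -0.89 and -0.50 (adjusted p = 0.032), and its call was lost without either UACC-62 replicate.

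ATP5IF1, the inhibitor that binds the ATP synthase and limits ATP hydrolysis, was the only member called higher in the IP. The call is relative to the centre of the tested genes and does not show a larger share of the IP than of the input. The gene lies on chromosome 1 from 28562620 to 28573417 (plus strand, ENSG00000130770). Over 11 common bins it had 160, 265 and 759 IP reads against 132, 244 and 327 input reads, and log2 values of 0.39, 0.85 and 1.28, all above 0 and highest in UACC-62 replicate 3. The fit gave 0.87 ± 0.18, or 1.83-fold higher (adjusted p = 0.00057). The 11 bins were annotated as 3′ UTR in at least 1 transcript, and 9 lay in exons of the main (MANE) transcript, whose 3′ UTR spans only 125 nt. The highest bin alone held 50, 95 and 276 IP reads against 36, 71 and 95 input reads. The call did not hold without the pairing of each IP with its input (adjusted p = 0.18) or with list totals as library sizes (0.14 ± 0.24, adjusted p = 0.60), and held in the other settings that measured it, with adjusted p from 1.1e-10 to 0.043.

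NDUFA11, a membrane-arm accessory subunit, was at -0.17, -1.0 and 0.22 (-0.31 ± 0.20, adjusted p = 0.18), so that its samples spanned 0.

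NDUFA10, an accessory subunit of complex I, showed different ratios in different parts of the gene (chromosome 2, 240831867 to 240965160, minus strand). Over all 44 common bins it had 389, 631 and 356 IP reads against 311, 565 and 506 input reads, with values of 0.44, 0.89 and -0.44 that did not pass the test (0.30 ± 0.21, adjusted p = 0.21). Without UACC-62 replicate 3 it was called higher (0.66, adjusted p = 0.022), and without UACC-62 replicate 1 it was at -0.01. The 21 bins in exons of the MANE transcript had 194, 174 and 185 IP reads against 297, 557 and 500 input reads, and a fit over such exons only gave -0.92 ± 0.18 (adjusted p = 0.00034), within the range of the other members. The remaining 23 bins had 195, 457 and 171 IP reads against 14, 8 and 6 input reads. Of these, 21 lay in a stretch of 2076 bp (240927379 to 240929454) just downstream of the penultimate exon of the MANE transcript, within its last intron, which is annotated as 3′ UTR in other NDUFA10 transcripts. There, the IP reads per bin ranged from 4 to 43, the input reads did not exceed 2, and 10 bins had no input read in any sample. The listed bins were not confined to this stretch: over the whole intron of 28887 bp there were 74, 261 and 132 of them, with 528, 2389 and 754 IP reads against 60, 117 and 29 input reads. For 3′ UTR bins only, NDUFA10 was called higher in the IP (1.58 ± 0.27, adjusted p = 2.9e-05). Of these 28 bins, however, 23 were those outside the MANE exons. The 5 bins in the 3′ UTR of the MANE transcript had 56, 61 and 53 IP reads against 75, 113 and 131 input reads.

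**Figure D2:**
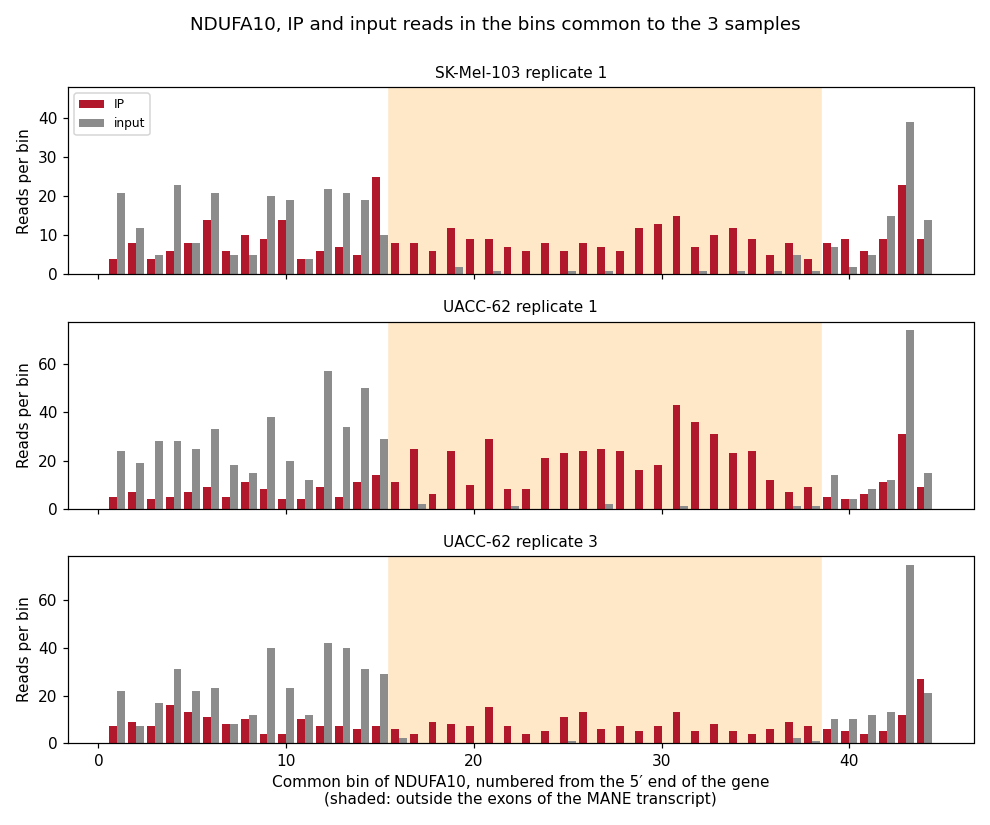
IP (red) and input (grey) reads in each of the 44 common bins of NDUFA10 (y axis), numbered from the 5′ end of the gene (x axis), with 1 panel per sample. In the shaded bins, outside the exons of the MANE transcript, IP reads stand almost without input reads in all 3 samples, whereas input exceeds IP in most bins of the MANE exons.

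The sequences of the bins behind these values are given to show which letters the IP reads of ATP5IF1 and the NDUFA10 stretch covered, beside the 5 members with the highest common bins and the member with the lowest ratio. All are 20-base bins annotated as 3′ UTR, read from the GRCh37 genome on the transcript strand, 5′ to 3′, with TGT (UGU in RNA, the repeated unit of GREs) in capitals. The bins lie at chr1:28564561-28564580 (ATP5IF1, plus), chr2:240928341-240928360 (NDUFA10, minus), chr12:57031961-57031980 (ATP5F1B, minus), chr1:46782401-46782420 (UQCRH, plus), chr20:57603741-57603760 (ATP5F1E, minus), chr6:75947501-75947520 (COX7A2, minus), chr5:132203321-132203340 (UQCRQ, plus) and chr3:120321101-120321120 (NDUFB4, plus).
ATP5IF1: aatattTGTcTGTGTgctac
NDUFA10: tctccctttcTGTcctTGTa
ATP5F1B: ataaaaTGTacacccctcag
UQCRH: TGTaattcgcaatgattcca
ATP5F1E: ttgaaatatggttcacTGTt
COX7A2: aaagcagtctttaccatgct
UQCRQ: tggaagaggagtctgcattg
NDUFB4: ttcacctctcatattaagtc

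The ATP5IF1 bin held 3 TGT copies within a few bases, the NDUFA10 bin 2, and the NDUFB4, COX7A2 and UQCRQ bins none. The ATP5F1B bin had 231, 319 and 497 IP reads against 678, 1713 and 1595 input reads, and the NDUFB4 bin 51, 48 and 54 against 171, 290 and 267. These bins were picked by their counts, and a match of letters does not show a binding site. Across all 1371 common bins of the members, 31.1% held TGT, against 33.3% of all 254519 common exonic bins. Within 3′ UTRs the shares were 36.8% and 37.2%, and among common peaks, as defined below, 42.5% and 38.2%. The hexamers TGTTTG and TGTGTG, which both contain TGT, occurred in 0.948% and 1.09% of the members’ bins and in 1% and 0.945% of all bins. These shares differed by region. In 3′ UTR bins, TGTTTG was found in 0.498% of the members’ bins against 1.2% of all and TGTGTG in 1.82% against 1.16%. In coding bins, TGTTTG was found in 1.3% against 0.539% and TGTGTG in 0.521% against 0.438%. The members’ shares rest on 3 and 11 bins in 3′ UTRs and on 10 and 4 in coding regions. Of the 21 bins of the NDUFA10 stretch, 9 held TGT and none held either hexamer. In the whole 3′ UTRs of main transcripts, TGTTTG was present in 19 of 85 members (22.4%) and TGTGTG in 23 (27.1%), against 59.4% and 54.4% of all tested genes. The median 3′ UTR was 195 nt in members and 1597 nt in all tested genes, and per kilobase the members had 0.589 and 1.04 copies against 0.674 and 0.894.

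Although lower than input, the members held many bins with high IP counts. A common peak was a bin with more than 30 IP reads and p below 0.05 in all 3 samples. Such a peak was found in 41 members, 45.1% of the 91 listed, against 13.2% of the 12790 protein-coding genes listed. The cutoff is on raw IP reads, and the share varied widely among other gene lists. It was 93.9% for cytosolic ribosomal proteins and 51.4% for proteasome subunits. For mitochondrial ribosomal proteins it was 8.97%, and for tricarboxylic acid cycle enzymes 5.88%. The members had 153 common peaks, of which ATP5F1B held 35, ATP5F1A 16, ATP5PB 9, ATP5F1E 8 and UQCRH 7. Members of complex IV (11 of 13 listed) and complex V (12 of 19) often had a common peak. Those of complex I had one less often than these (1 of 7 core subunits, 9 of 30 accessory subunits and none of 8 assembly factors). In ATP5F1B, the bin printed above had the highest count of any member, at 497 IP reads in UACC-62 replicate 3, and yet more input than IP reads in each sample.

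By the region labels of the bins, the position of the IP reads along the members differed little from that of the input. A bin counted as 3′ UTR where any transcript has it so, and can be coding in the main transcript. For example, NDUFB11 had 9 such bins of 20 bp for a 3′ UTR of 104 nt in its main transcript. The regions are thus partly mixed in members with short 3′ UTRs, and the effect on these values was not tested. Of the members’ reads in common bins, 53.2%, 51.8% and 53.4% of the IP and 51.1%, 48.5% and 51.9% of the input lay in 3′ UTRs. For all genes, these shares were 78.5%, 83% and 81.4% of the IP and 57.7%, 56.9% and 59% of the input. Gene by gene, the log2 IP over input of the 3′ UTR minus that of the coding region had a median of 0.09 in the 73 members with enough reads in both, and of 0.45 in all 4145 such genes. It was above 0 in all 3 samples for 24 members (32.9%), against 57.9% of all such genes, and below 0 in all 3 for 23 members (31.5%) against 11.7%. NDUFA10 (2.80), NDUFS5 and NDUFV2 (0.85 each) were at the upper end, and ATP5F1D (-1.38) at the lower end. Most 3′ UTR bins behind the NDUFA10 value lay in the last intron of its MANE transcript. The difference in this measure between members and other genes was not tested.

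The median of the members was below that of all tested genes in each of 5 classes of 3′ UTR length and in each of the 4 classes of read density that held members. Among genes with a 3′ UTR under 250 nt, 77% were lower in the IP (median -1.02), and 46 of 49 members were (median -1.19). Among genes with a 3′ UTR of 2000 nt or more, 17.7% were lower (median 0.55), and 10 of 11 members were (median -1.0). These lengths are those of the annotated main transcript, and the common bins covered only part of them. For example, NDUFA9 had 3 common 3′ UTR bins of 20 bp for 7212 nt, and NDUFA5 had 27 for 5125 nt. The lengths present in these cells were not measured. Across genes, the Spearman correlation of the ratio with 3′ UTR length was 0.48 over 6889 genes and 0.12 over 85 members. The correlation with input reads per bin was -0.78 over all 6914 genes and -0.46 over members. Both describe genes of the same libraries, and input reads enter the ratio itself. By the mean of IP and input reads per common bin, 39 members fell between 20 and 40 reads, where 59.3% of the 1168 genes were lower and 36 members were, and 26 fell between 40 and 80 reads, where 55.8% of the 364 genes were lower and all 26 members were. From 80 reads upwards, 70.3% of the 236 genes and all 7 members were lower, and their medians were close (-1.18 and -1.25). No member had fewer than 10 reads per bin, the class with 2197 genes in which 3.32% were lower.

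**Figure D3:**
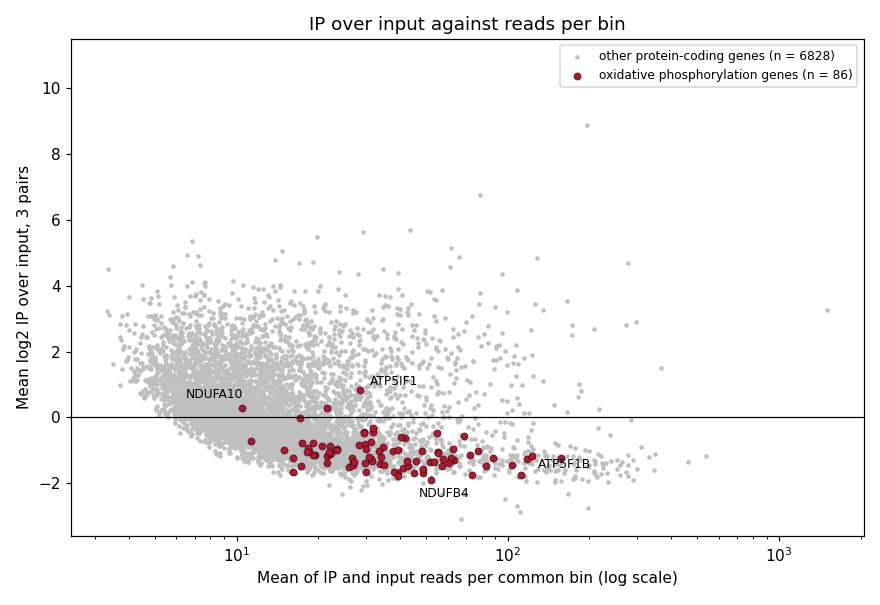
Mean log2 IP over input over the 3 pairs (y axis) against the mean of IP and input reads per common bin (x axis, log scale) for the 86 members (red) and the other tested genes (grey). No member lies below 10 reads per bin, and most lie between -0.5 and -2, where many other genes with like reads per bin also lie; NDUFA10 and ATP5IF1 are above 0.

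In the inputs, the members were represented less in SK-Mel-103 than in UACC-62. The median input level, as input reads per listed kilobase scaled to library size (RPM per kb), was 192 in SK-Mel-103 and 286 and 323 in the UACC-62 replicates, against 70.3, 76.3 and 70.5 for all tested genes. SK-Mel-103 was below both UACC-62 replicates for 75 of 86 members, as it was for 44.5% of all tested genes. In such bulk libraries, less RNA per cell and fewer cells with the RNA cannot be told apart. Log2 IP over input was less negative in SK-Mel-103 than in both UACC-62 replicates for 73 members, against 38.4% of all tested genes, and below both for 5. Input reads are the denominator of this ratio, so that it is not independent of the input levels above. The median difference in the ratio was 0.58 over members and 0.01 over all genes, with a median SD between the UACC-62 replicates of 0.20. Since SK-Mel-103 had 1 sample, the difference was not tested, and line and sample cannot be told apart. Across members, the Spearman correlation of the ratio was 0.76 between the UACC-62 replicates and 0.57 and 0.71 between SK-Mel-103 and each of them, over the 86 genes of the same libraries.

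**Figure D4:**
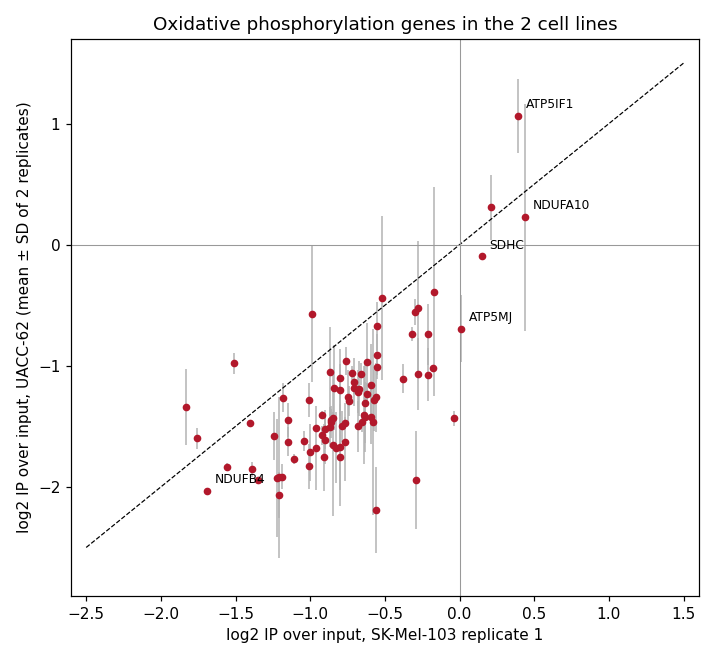
Log2 IP over input in SK-Mel-103 replicate 1 (x axis) against the mean of the UACC-62 replicates (y axis, bars show the SD of 2 replicates) for the 86 tested members, with the line of equality dashed. Most members lie below the line, that is, lower in UACC-62, and ATP5IF1 lies above it.

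Other gene lists for mitochondrial and for abundant housekeeping proteins gave comparable values. Of 72 tested mitochondrial ribosomal proteins, 59 were lower and 1 higher (median -1.04). Of 82 cytosolic ribosomal proteins, 78 were lower and none higher (median -1.45), and of 36 proteasome subunits 32 were lower and 1 higher (median -1.17). Among tricarboxylic acid cycle enzymes, 11 of 14 tested were lower and none higher (median -1.01), and among further assembly factors of the respiratory complexes 17 of 21 were lower and 1 higher (median -0.76). The regulators of mitochondrial gene expression were divided. TFAM, which packages mitochondrial DNA and promotes its transcription, had 1.3, 1.22 and 1.11 and was higher in the IP (1.21 ± 0.18, adjusted p = 2e-05). PPARGC1B, a coactivator of mitochondrial biogenesis, had 3.48, 3.40 and 3.14 (3.50 ± 0.34, adjusted p = 2.1e-07). GABPA, POLRMT and TFB2M were lower (adjusted p = 0.00052, 0.035 and 0.028), ESRRA did not pass (adjusted p = 0.051), and PPARGC1A and NRF1 could not be tested. The mitochondrial chromosome itself, read without assignment to genes, took 0.0894%, 0.23% and 0.365% of the IP reads and 0.545%, 1.18% and 1.1% of the input reads.

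**Figure D5:**
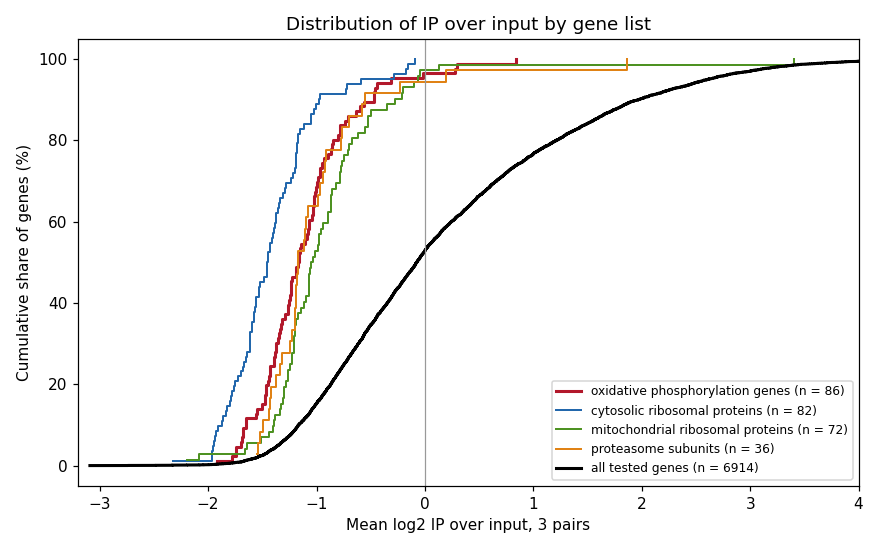
Cumulative share of genes (y axis, %) against mean log2 IP over input over the 3 pairs (x axis) for the 86 members, 3 other lists and all 6914 tested genes. The curve of the members lies between those of cytosolic and mitochondrial ribosomal proteins over most of its range, and left of that of all genes; genes above 4 are outside the plot.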

How the data were processed

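CELF1 RIP-Seq lists of 3 IP samples, each with its input, were analysed. The submitters’ processing notes name TopHat2 2.0.4, Bowtie 0.12.7 and GRCh37 (hg19), and peaks were called with Piranha, a bin width of 20 bp and the input as covariate. Deposited counts are whole IP reads of each bin without normalization. Each bin also carries a deposited p-value, all below 0.05, the false discovery rate stated for the calling. The ratio deposited by the authors is the input covariate, from which input reads were recovered as whole multiples (100% within 0.1 read; 0.01 means none). Only passing bins are listed.

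Bins were assigned by their centre to exons of protein-coding genes (GENCODE version 44 mapped to GRCh37) on the reverse of the listed strand, with 3′ UTR before coding region before 5′ UTR. Bins in exons of several genes were left out. Depth was the reads in the listed bins, and their number limits the precision of low counts. Reads in common bins were tested with edgeR 4.0.16 (quasi-likelihood, TMM, filterByExpr with a minimum count of 10, sample pair as block, Benjamini-Hochberg, threshold 0.05) under R 4.3.3. Per-pair log2 values used a pseudocount of 1 read. The pairs come from the labels, and the UACC-62 IP and input differences between replicates correlated with r = 0.37 across genes. In a simulation with 6914 genes, of which 200 were changed, 84% of changes of 1 and 100% of changes of 2 on the log2 scale were recovered, and 0.164% of unchanged genes were called. The simulation did not include the selection of bins by IP reads. In the data, 34.3% of genes were called lower and 32.5% higher, far more than were changed in the simulation. Its rates are therefore not error rates of the calls reported here. The contrast of 3′ UTR and coding region required 30 IP and 30 input reads in each region over the 3 samples. P-values rest on dispersions that edgeR moderated across genes, and the SE was derived from the log2 value and the test statistic. Neither is therefore the spread of the samples for that gene alone. The pairs mix SK-Mel-103 and UACC-62, and SK-Mel-103 had no replicate.

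Genes named are, per complex, the 2 highest and 2 lowest means, the 5 lowest adjusted p-values in each direction, SDHA to SDHD, CYC1, ATP5IF1, isoform pairs, the 5 with most common peaks and the 5 with the highest common bin, and genes not listed, 51 in all, of which 1 is not reported here. NDUFS5, NDUFV3, NDUFAF1, NDUFAF5, NDUFAF7, UQCRHL, ATP5F1D and the regulators were named after their values were seen. Members and lists were chosen with earlier results of these data known. Alternatives covered normalization (DESeq2 1.42.0, list totals), filters, bins, regions, strand, pairing and single samples. Input reads come from the covariate only, and genes of the mitochondrial chromosome were not analysed here. Python 3.11.15 was used.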

Additional observations from a re-analysis of the deposited data

Results flagged for a closer look

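For 2 named members, SK-Mel-103 and both UACC-62 replicates lay on opposite sides of 0, a difference between the lines that was not tested because SK-Mel-103 had 1 sample. For ATP5MJ, log2 IP over input stood at 0.01 in the SK-Mel-103 sample and at -0.89 and -0.50 in UACC-62, and the difference from the UACC-62 mean was 0.71. SDHC had 0.15 against -0.09 and -0.10, a difference of 0.24, with each value near 0.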

How the results depend on the processing

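The 81 lower calls ranged from 75 to 80 without 1 sample each, the higher calls from 1 to 2 (main 1) and the median from -1.37 to -1.05 (main -1.16). Over all genes, 1857 to 2495 were then lower and 1908 to 2436 higher. Without pairing each IP with its input (no replicate block), 60 members were lower and 0 higher, all 60 among the 81, and of all 6914 genes 1289 were lower and 1531 higher. With coding bins only, 47 were lower and the median was -0.64. With list totals as library sizes, the median was -1.88, with 0 members higher and 83 lower, while the median of all genes moved to -0.79 and calls over all genes to 1312 higher and 3969 lower (main 2250 and 2371). With 3′ UTR bins only, 79 of 84 members were lower and 3 higher, among them ATP5IF1 and NDUFA10, the latter mostly through bins outside its MANE exons. Of all 6378 genes in that setting, 2346 were lower and 2080 higher. Under the listed strand as given, only 1 member could be tested, with 1 lower, 0 higher and a median of -1.88, and 0 members had a common peak. The 41 members with a common peak became 87 with every listed bin and 5 above 100 IP reads, and 41 to 53 without 1 sample each. The difference of SK-Mel-103 from UACC-62 was 0.91 with list totals, and 0.49 to 0.65 without 1 UACC-62 replicate each. DESeq2 called 76 members lower and 1 higher, and 1941 and 2130 of all 6914 genes. ATP5MC2, ATP5MJ, COX7A2L and NDUFS7 were among the members it no longer called. With bins that have input in every sample, ATP5MC2, ATP5MJ and COX7A2L lost their calls. Exons of the MANE transcript only, chosen after seeing the data, gave 80 lower and 1 higher, and 2339 and 2202 of all 6815 genes. Of 41 named members tested, 23 kept direction and side of the threshold in every setting run. Directions turned for NDUFA10 (-0.41 with list totals, -0.60 with coding bins, -0.01 to 0.66 without 1 sample each, -0.80 with bins that have input in every sample, -0.92 with MANE exons), SDHC (0.03 by DESeq2, 0.30 with coding bins, -0.07 to 0.01 without 1 sample each, 0.02 with bins that have input), NDUFA11 (-0.60 to 0.03 without 1 sample each) and COX8A (0.24 with coding bins). Only the last of these genes had been called. The cause was not tested. Depth limits genes with few common bins, and the lists hold no bin under 4 IP reads.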
